A study of Mus musculus with 9 samples.

Results

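The monocyte and macrophage marker genes described here are Ly6c2, Cd14, Csf1r, Adgre1, Cd68, Lyz2, Mpeg1 and Maf. They were taken by gene symbol from a table of 54532 genes, in which each symbol was found once. All 8 passed the filter that left 12746 tested genes, namely that 3 or more of the 9 samples reached an FPKM of 1. FPKM is the number of reads on a gene per kilobase of the gene, scaled to the size of the library.

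Monocytes leave the bone marrow and circulate in the blood and spleen, where classical monocytes carry high Ly6C and nonclassical monocytes carry little Ly6C and more CX3CR1 and CD43. Tissue macrophages, such as the red pulp macrophages of the spleen, take up cells and debris, and most depend on the CSF1 receptor for their survival. Conventional DCs share many myeloid genes with these cells, so that CD11c alone does not separate the lineages.

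RNA was sequenced in bulk from spleen cells of female mice of 6 to 8 weeks, of the C57BL/6J or C57B6.SJL strain, with 3 samples in each of 3 groups. N-mDCs were the mature conventional DCs sorted from untreated animals. T-mDCs were mature conventional DCs, and T-DCs were CD11c+MHCIIlo cells, both of mice that had received T-cell acute lymphoblastic leukemia cells (T-ALL) without irradiation. The leukemia cells carried the intracellular part of Notch1 and GFP from a retrovirus, and the recipients were sorted on day 15, after GFP+, CD3+ and NK1.1+ cells, among others, had been gated out for T-DCs. T-DCs were gated on MHCII and CD11c, and no gate on CD115, F4/80, CD14 or Ly6C is stated, so monocytes or macrophages with these surface markers were not removed by a stated gate. The labels do not say whether samples of a group came from separate mice or pools, and p-values measure only the spread between these samples, which may be technical. In bulk RNA, fewer cells of a type and less RNA per cell cannot be told apart. The paper reports, by flow cytometry, less surface protein of Csf1r and Adgre1 on T-DCs than on N-mDCs or T-mDCs. It detected progeny of transferred DC precursors, but not of monocytes, among T-DCs. Its single-cell data placed macrophage-like DCs among the main parts of T-DCs. The RNA of Csf1r and Adgre1 had higher estimates in T-DCs than in T-mDCs, without passing the threshold. How RNA and surface protein relate was not tested.

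The label of each sample is its group and number (T-DC 1 is the first T-DC sample). Reads on genes ranged from 15360815 to 18440913 per library. T-mDC 2 and 3 lay much closer together than any other pair, with a chi-square of 2.51 per gene over genes with at least 20 reads in both, where the other pairs within a group gave 45.6 to 561 and counting noise alone gives about 1; they were kept as separate samples, and values with them taken as a single sample are given beside the results. T-DC 1 stood apart from T-DC 2 and 3 (476 and 561 per gene). Hemoglobin genes took 3.82% and 3% of the reads in T-DC 2 and 3 and at most 0.405% in any other library. Itgax, which encodes CD11c, was at 152, 90.4 and 43.0 FPKM in T-DC 1 to 3, below every sample of both other groups. It was not called against N-mDCs or T-mDCs (limma adjusted p = 0.0926 and 0.149). Zbtb46, a transcription factor of conventional DCs, was called lower in both contrasts, at 1.84, 2.84 and 3.42 FPKM in T-DC 1 to 3. Of 11 genes of DCs, these 2 included, T-DCs expressed less of 8 in the contrast with N-mDCs and of 9 in that with T-mDCs (limma, threshold of 0.05). Under the other settings 6 to 10 and 0 to 11 were called, the lowest counts with a red cell covariate (the mean log2 level of red cell genes in each sample) and the highest without T-DC 1; against T-mDCs 6 were called with T-mDC 2 and 3 as 1 sample or without either. MHCII genes are among the 11, and T-DCs were gated on MHCII. Zbtb46 was at 11.7 to 16 FPKM in N-mDCs and at 10.7 to 23.5 FPKM in T-mDCs.

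The 8 marker genes were present in all 3 groups, and no difference between T-DCs and N-mDCs passed the threshold. T-DCs expressed more Cd14 and Lyz2 than T-mDCs, and T-mDCs expressed less Cd14 than N-mDCs. Ly6c2, Adgre1 and Csf1r had intervals above 0 for T-DCs against T-mDCs but did not pass the threshold. Mpeg1 was the single member with a lower mean log2 level in T-DCs than in T-mDCs. In T-DC 1, 5 of the 8 genes reached their highest level of all 9 samples.

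Between T-DCs and N-mDCs, 0 of 8 genes were called by limma at an adjusted p under 0.05, against 6.1% of tested genes called higher and 10.3% called lower. At an unadjusted p under 0.05 Cd14 alone passed, and 0 members were called under any of the 20 other settings, voom on recovered reads included. Cd14 was also the single member of 8 whose samples did not overlap between these groups, where 32.4% of tested genes did not overlap. The median log2 fold change of the members was -0.28, beside 0.05 over all tested genes.

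Between T-DCs and T-mDCs, 2 of 8 genes (Cd14 and Lyz2) were called higher in T-DCs, against 5.44% of tested genes, and 0 were called lower, against 8.79%. At an unadjusted p under 0.05 limma gave 5 higher and 0 lower, and voom on recovered reads called 2. These were also the 2 members whose samples did not overlap, against 34.9% of tested genes. Of the 8 log2 fold changes 7 were above 0, and their median was 1.60 beside 0.07 over all tested genes. With T-mDC 2 and 3 taken as 1 sample 0 members were called, and without T-mDC 1 there were 5 (Ly6c2, Adgre1, Cd14, Lyz2 and Csf1r).

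Between T-mDCs and N-mDCs, 0 of 8 genes were called higher in T-mDCs, against 0.69% of tested genes, and 1 (Cd14) was called lower, against 1.52%. At an unadjusted p under 0.05 limma gave 0 higher and 5 lower, and voom called 1. Samples did not overlap for 6 of the 8, against 35% of tested genes. Of these, Ly6c2, Adgre1, Cd14, Lyz2 and Csf1r were lower and Mpeg1 was higher in T-mDCs, and Csf1r was separated by less than 0.1 FPKM. The median log2 fold change was -1.40 beside 0.03 over all tested genes. Both contrasts with T-DCs use the same T-DC samples, so they are not independent of each other.

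**Figure D1:**
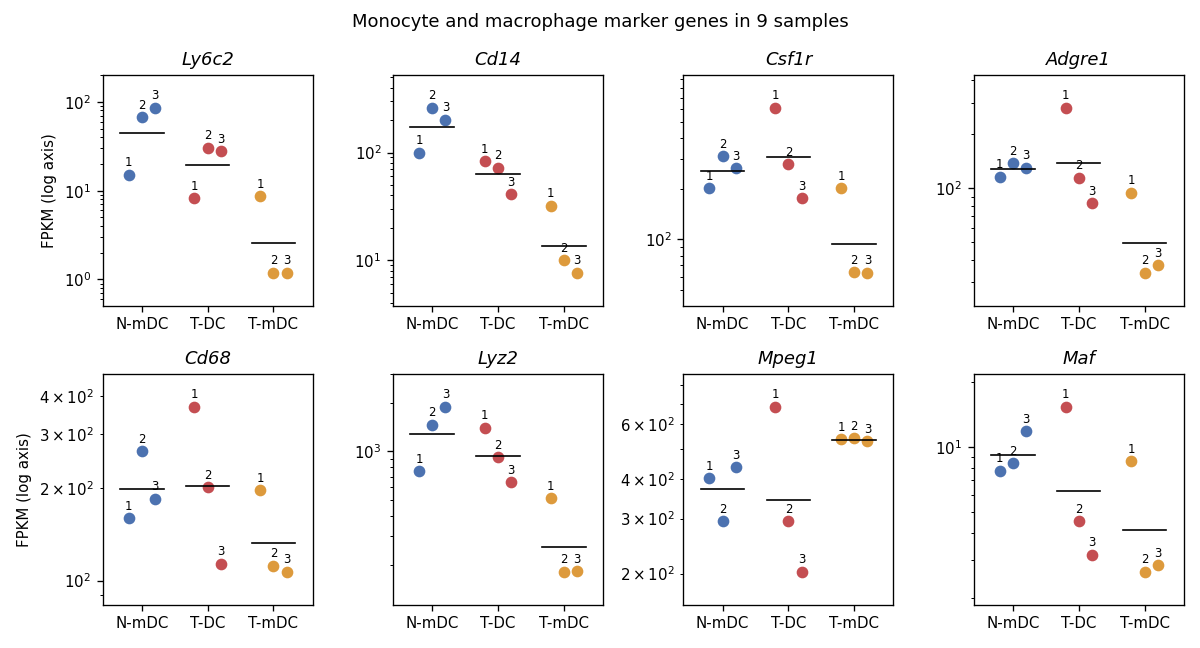
FPKM of the 8 marker genes in each sample, on log axes that differ between panels; points are the samples with their numbers, and lines are the group means of log2(FPKM + 1) put back on the FPKM scale. T-DC 1 was the highest of 9 samples for Adgre1, Cd68, Csf1r, Maf and Mpeg1, and T-mDC 2 and 3 were the lowest for 7 of the 8 genes between them.

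**Figure D2:**
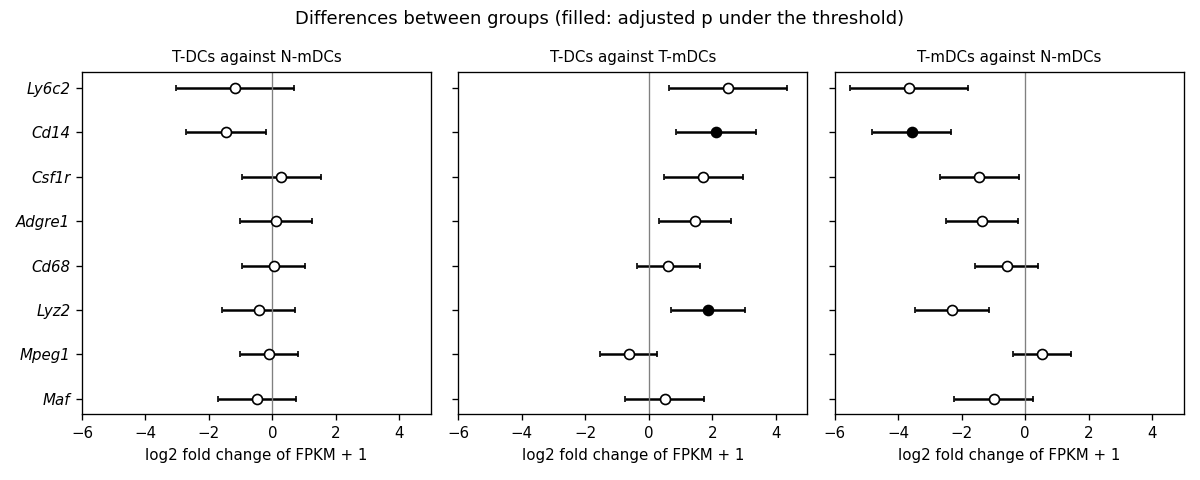
Log2 fold change of FPKM + 1 for each marker gene in the 3 contrasts; points are estimates from limma, whiskers are 95% intervals, and filled points had an adjusted p under 0.05. The filled points are Cd14 and Lyz2 for T-DCs against T-mDCs and Cd14 for T-mDCs against N-mDCs.

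Ly6c2 encodes the surface protein Ly6C2, by which mouse classical monocytes are recognised, and lies on chromosome 15 (mm10, 75108158 to 75111970, minus strand). It was at 15.2, 67.2 and 85.8 FPKM in N-mDC 1 to 3, at 8.25, 30.5 and 27.6 FPKM in T-DC 1 to 3, and at 8.70, 1.19 and 1.19 FPKM in T-mDC 1 to 3. T-DC 1 was below T-mDC 1, so these groups overlapped, as did T-DCs and N-mDCs. The 1.19 FPKM of T-mDC 2 and 3 rested on 63 and 60 reads, where N-mDC 3 had 4266.

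The mean level of Ly6c2 was 56.0 ± 36.6 FPKM in N-mDCs, against 22.1 ± 12.1 FPKM in T-DCs, with 3.69 ± 4.34 FPKM in T-mDCs (SD, n = 3 each). The log2 fold change was -1.17 for T-DCs against N-mDCs (95% interval -3.03 to 0.69, limma adjusted p = 0.333). It was 2.5 for T-DCs against T-mDCs (0.64 to 4.35, limma adjusted p = 0.0765). T-mDCs compared with N-mDCs gave a value of -3.67 (SE 0.82, limma adjusted p = 0.0628), the largest difference in size of any member, without passing the threshold.

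Ly6c2 had the widest spread of the 8 genes within T-mDCs (7.31-fold) and within N-mDCs (5.65-fold). The tested gene with the most similar course over the 9 libraries was Retnlg, a gene of neutrophils, with a root mean square difference of 0.65 on the log2 scale beside 1.81 for the course of Ly6c2 itself. Retnlg was at 4.52 FPKM in T-DC 1 and at 34.1 and 19.7 FPKM in T-DC 2 and 3. The summed FPKM of 11 neutrophil genes was 43.3 in T-DC 1 and 4393 and 1552 in T-DC 2 and 3, 86.9 to 768 in N-mDCs and 21.6 to 22.1 in T-mDCs, with Ly6g, a defining marker of neutrophils, at 0, 5.14 and 1.54 FPKM in T-DC 1 to 3. The part of these other cells in the level of Ly6c2 was not tested. Of the 50-base stretches of the Ly6c2 transcripts, 14.4% also occur in other genes, nearly all in Ly6c1, which was at 0.27 FPKM or less in each library.

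Cd14 encodes the coreceptor that hands bacterial lipopolysaccharide to TLR4, and is read from the minus strand of chromosome 18 (mm10, 36725074 to 36726736). Its level was 99.5, 260.2 and 202 FPKM in N-mDC 1 to 3, 83.2, 72.5 and 40.8 FPKM in T-DC 1 to 3, and 32, 9.94 and 7.64 FPKM in T-mDC 1 to 3. The 3 groups did not overlap, with N-mDCs highest, T-DCs between and T-mDCs lowest.

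Cd14 had group means of 187 ± 81.3 FPKM (N-mDCs), 65.5 ± 22.1 FPKM (T-DCs) and 16.5 ± 13.4 FPKM (T-mDCs), as mean ± SD with n = 3 each. T-DCs had 2.12 more than T-mDCs on the log2 scale (SE 0.55, 95% interval 0.87 to 3.38, limma adjusted p = 0.0371). In T-mDCs it fell by 3.58 on the log2 scale relative to N-mDCs (SE 0.55, limma adjusted p = 0.0189). T-DCs against N-mDCs gave -1.45 (95% interval -2.71 to -0.20, limma adjusted p = 0.101), so these neighbours in the order did not pass the threshold although their samples did not overlap. The call for T-DCs against T-mDCs held under 9 of the 20 other settings and that for T-mDCs against N-mDCs under 14, and both were lost with T-mDC 2 and 3 taken as 1 sample. Leaving out 1 sample, the first was lost without N-mDC 3, T-DC 2, T-DC 3, T-mDC 2 or T-mDC 3, with a limma adjusted p of up to 0.146, and the second without N-mDC 2, N-mDC 3, T-mDC 2 or T-mDC 3, with a limma adjusted p of up to 0.0974.

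Of the partners of CD14, Tlr4, the signaling receptor, was at 12.5, 4.31 and 2.25 FPKM in T-DC 1 to 3, at 4.09 to 6.78 FPKM in N-mDCs and at 1.55 to 4.49 FPKM in T-mDCs. Ly96, which encodes the MD-2 subunit that binds the lipid, was at 4.45 to 11.7 FPKM in T-DCs, 7.64 to 10.2 FPKM in N-mDCs and 5.07 to 7.68 FPKM in T-mDCs. Neither was called in a contrast with T-DCs, with limma adjusted p of 0.29 for Tlr4 and 0.707 for Ly96 against T-mDCs and of 0.994 and 0.505 against N-mDCs. Of the 9 tested genes of the CD14 and TLR4 list, Ly86, the MD-1 subunit of the RP105 complex, was lower in T-DCs than in both other groups and the other 8 were not called. Of all tested genes, 10.3% were called lower against N-mDCs and 8.79% against T-mDCs. Ly86 fell by 1.87 on the log2 scale against N-mDCs and by 1.44 against T-mDCs (limma adjusted p = 0.017 and 0.0456), and was at 33.6, 17.6 and 8.58 FPKM in T-DC 1 to 3. These calls held under 14 and 7 of the 20 other settings. The first was lost without T-DC 2 or without any 1 of the N-mDCs, and the second without any 1 sample other than T-DC 1. Without T-DC 1, 3 genes of the list were called in each contrast.

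Csf1r encodes the receptor for CSF1 and IL-34 (CD115), on which monocytes and macrophages depend, and lies on the plus strand of chromosome 18 (mm10, 61105572 to 61132149), where it overlaps Hmgxb3 on the other strand. It was at 203, 314 and 265 FPKM in N-mDC 1 to 3, at 609, 281 and 176 FPKM in T-DC 1 to 3, and at 203, 64.1 and 63.3 FPKM in T-mDC 1 to 3. T-DC 1 was 3.45-fold above T-DC 3, and T-DCs overlapped both other groups. Whether the counting used the strand is not given in the sources used here, so reads of Csf1r and Hmgxb3 in their overlap could not be told apart.

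The log2 fold change of Csf1r was 0.28 for T-DCs against N-mDCs (95% interval -0.97 to 1.53, limma adjusted p = 0.755) and turned to -0.20 without T-DC 1. Against T-mDCs it was 1.72 (0.47 to 2.97, limma adjusted p = 0.0711), which passed the threshold only without T-mDC 1 among the 20 other settings. T-mDCs against N-mDCs gave -1.44 (SE 0.55, limma adjusted p = 0.235).

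Csf1, the ligand, was at 3, 2.88 and 6.29 FPKM in N-mDC 1 to 3 and at 0.52, 1.14 and 0.46 FPKM in T-DC 1 to 3. It fell by 1.53 on the log2 scale in T-DCs against N-mDCs (SE 0.27, limma adjusted p = 0.0085), and T-DCs and T-mDCs overlapped (limma adjusted p = 0.705). Csf1 was also called lower in T-mDCs than in N-mDCs (-1.36, limma adjusted p = 0.045), but not with T-mDC 2 and 3 as 1 sample. The other ligand, Il34, was at 0.09 FPKM or less in each library. Spi1, which encodes the transcription factor PU.1 that acts on Csf1r, was at 307, 179.7 and 116 FPKM in T-DC 1 to 3, 164 to 254 FPKM in N-mDCs and 175 to 204 FPKM in T-mDCs, and Tyrobp, an adaptor of myeloid receptors, was at 1040.1, 569 and 384 FPKM in T-DC 1 to 3. Neither was called in a contrast with T-DCs (limma adjusted p from 0.279 to 0.993), and Csf1 was the single call among the 9 tested genes of the CSF1R list in these contrasts. Of all tested genes, 10.3% were called lower against N-mDCs. Without T-DC 1, 6 genes of the list were called against N-mDCs and 3 against T-mDCs.

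Adgre1 encodes the adhesion receptor F4/80, by which mouse macrophages are stained, and lies on chromosome 17 (mm10, 57358691 to 57483527, plus strand). It was at 116, 138 and 131 FPKM in N-mDC 1 to 3, at 281, 115 and 82.7 FPKM in T-DC 1 to 3, and at 94.7, 33.9 and 37.4 FPKM in T-mDC 1 to 3. N-mDCs lay within 1.19-fold of each other, while T-DCs spanned 3.40-fold and covered the whole range of N-mDCs.

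The log2 fold change of Adgre1 was 0.12 for T-DCs against N-mDCs (95% interval -1.02 to 1.25, limma adjusted p = 0.894) and -0.39 without T-DC 1. It was 1.47 for T-DCs against T-mDCs (0.34 to 2.61, limma adjusted p = 0.0841) and -1.36 for T-mDCs against N-mDCs (SE 0.50, limma adjusted p = 0.219). Adgre1 and Csf1r were each other's nearest tested gene over the 9 libraries, with a root mean square difference of 0.17 on the log2 scale. For both the order of the libraries ran from T-DC 1 at the top to T-mDC 2 and 3 at the bottom.

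Cd68 encodes a lysosomal membrane protein of phagocytes and lies on chromosome 11 (mm10, 69664213 to 69666153, minus strand). Its level was 160.2, 265 and 185 FPKM in N-mDC 1 to 3, 369.8, 201 and 113 FPKM in T-DC 1 to 3, and 197, 112 and 107 FPKM in T-mDC 1 to 3. All 3 groups overlapped. The log2 fold change was 0.04 for T-DCs against N-mDCs (95% interval -0.96 to 1.03, limma adjusted p = 0.964), 0.61 against T-mDCs (-0.38 to 1.60, limma adjusted p = 0.381) and -0.58 for T-mDCs against N-mDCs (limma adjusted p = 0.546). The gene with the nearest course was Ctsa, which encodes a lysosomal protease, with a difference of 0.08 on the log2 scale, the smallest for any member.

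Maf encodes c-Maf, a transcription factor of macrophages, and lies on chromosome 8 (mm10, 115682942 to 115707794, minus strand). It was the lowest of the 8 genes per length in N-mDCs, at 7.76, 8.40 and 11.9 FPKM in samples 1 to 3, with 15.4, 4.54 and 3.16 FPKM in T-DC 1 to 3 and 8.61, 2.64 and 2.83 FPKM in T-mDC 1 to 3. T-DC 1 was above all N-mDCs and T-DC 2 and 3 were below all of them, a 4.87-fold range within T-DCs. The log2 fold change was -0.50 against N-mDCs (95% interval -1.73 to 0.74, limma adjusted p = 0.546), and 0.50 against T-mDCs (-0.73 to 1.73, limma adjusted p = 0.567), the last turning to -0.09 without T-DC 1.

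Maff, which encodes a small Maf protein, was at 52.4 to 73.5 FPKM in N-mDCs and 3.40 to 6.57 FPKM in T-DCs. It fell by 3.45 on the log2 scale against N-mDCs and by 2.19 against T-mDCs (limma adjusted p = 0.00054 and 0.00274). The small Maf genes did not move alike. Mafg rose by 0.83 and 1.14 in the same contrasts (limma adjusted p = 0.0177 and 0.00569), and Mafk was not called in either (limma adjusted p = 0.717 and 0.622).

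Mpeg1 encodes perforin-2, a pore-forming protein of phagocytes, and lies on chromosome 19 (mm10, 12460779 to 12465284, plus strand). It was at 404, 294 and 439 FPKM in N-mDC 1 to 3, at 684, 294 and 203 FPKM in T-DC 1 to 3, and at 538, 542 and 530.1 FPKM in T-mDC 1 to 3. Unlike the other members, it was higher in every T-mDC than in every N-mDC, and T-mDCs lay within 1.02-fold of each other. T-DCs spanned 3.37-fold, above and below all T-mDCs.

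The log2 fold change of Mpeg1 was -0.12 for T-DCs against N-mDCs (95% interval -1.03 to 0.80, limma adjusted p = 0.864), -0.64 against T-mDCs (-1.55 to 0.27, limma adjusted p = 0.322) and 0.52 for T-mDCs against N-mDCs (-0.39 to 1.43, limma adjusted p = 0.553). Without T-DC 1 the value against T-mDCs was -1.13 and passed the threshold (limma adjusted p = 0.00837). Its related gene Prf1, perforin of killer lymphocytes, was at 4.53 to 9.59 FPKM in N-mDCs and at 0.13, 2.22 and 0.13 FPKM in T-DC 1 to 3, and fell by 2.26 on the log2 scale against N-mDCs (limma adjusted p = 0.00951).

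Lyz2 encodes the lysozyme of monocytes, macrophages and neutrophils, an enzyme that cuts bacterial cell walls, and lies on chromosome 10 (mm10, 117277331 to 117282321, minus strand). Lyz1, its neighbour and close copy, encodes the lysozyme best known from Paneth cells of the gut. Because the pair was called in opposite directions between T-DCs and T-mDCs, a stretch of 201 bases upstream of each gene is shown from RefSeq (GRCm38.p6), 5′ to 3′ on the minus strand, with motif matches in capitals. The RefSeq start of Lyz2 lies inside the gene as the deposited table bounds it, so the window ends where that table's gene begins, and the Lyz1 window was taken at the same distance from its RefSeq start. They lie at chr10:117282322-117282522 for Lyz2 and chr10:117292918-117293118 for Lyz1.
Lyz2: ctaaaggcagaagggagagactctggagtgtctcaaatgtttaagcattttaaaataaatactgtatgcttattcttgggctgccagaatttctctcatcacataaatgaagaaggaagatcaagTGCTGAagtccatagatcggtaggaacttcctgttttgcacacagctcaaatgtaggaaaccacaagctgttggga
Lyz1: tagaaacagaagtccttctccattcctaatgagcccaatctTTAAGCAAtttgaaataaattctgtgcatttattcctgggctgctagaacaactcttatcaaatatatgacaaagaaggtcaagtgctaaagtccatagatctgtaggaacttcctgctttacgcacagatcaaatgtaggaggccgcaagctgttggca
Of 199 aligned bases 151 (75.9%) were identical, and the longest shared run was 14 bases. The motifs searched on both strands were the PU.1 core GAGGAA, the C/EBP motif TTGCNNAA and the Maf core TGCTGA, which occur in 18.8%, 8.17% and 13.2% of the matching stretches of all 32851 promoters. The Lyz2 window held the Maf core and the Lyz1 window held the C/EBP motif on the other strand. A match is a string of letters and not a measured site.

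Lyz2 was the highest of the 8 genes per length in every N-mDC and T-DC sample, at 753, 1459 and 1890.0 FPKM in N-mDC 1 to 3, at 1399.6, 921 and 648 FPKM in T-DC 1 to 3, and at 513, 182 and 184 FPKM in T-mDC 1 to 3. Every T-DC was above every T-mDC, and T-DCs and N-mDCs overlapped. T-DCs had 1.87 more than T-mDCs on the log2 scale (SE 0.51, 95% interval 0.71 to 3.02, limma adjusted p = 0.0425), a call that held under 6 of the 20 other settings. Against N-mDCs the value was -0.44 (-1.59 to 0.72, limma adjusted p = 0.569), and T-mDCs against N-mDCs gave -2.30 (SE 0.51, limma adjusted p = 0.0595).

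On leaving out 1 sample, the call of Lyz2 between T-DCs and T-mDCs held without N-mDC 1 or T-mDC 1 and was lost without any other sample, with a limma adjusted p from 0.0528 (without T-DC 1) to 0.167 (without T-mDC 2). With T-mDC 2 and 3 as 1 sample the limma adjusted p was 0.166. The summed FPKM of the 9 red pulp macrophage genes, 2339, 712 and 414 in T-DC 1 to 3 and 1102, 250 and 249 in T-mDC 1 to 3, was highest in T-DC 1 and in T-mDC 1, as Lyz2 was. The sum of the 10 nonclassical monocyte genes was 3483, 1664 and 1257 in T-DC 1 to 3 and 1055, 435 and 440 in T-mDC 1 to 3. It was highest in the same samples, and every T-DC was above every T-mDC, as for Lyz2. The sum of the 11 neutrophil genes, 43.3, 4393 and 1552 in T-DC 1 to 3 and 21.6 to 22.1 in T-mDCs, was also higher in every T-DC than in every T-mDC. Among T-DCs it was lowest in T-DC 1, where Lyz2 was highest. The part of these cells in the difference of Lyz2 was not tested.

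Lyz1 was at 15.5, 14.9 and 13.1 FPKM in N-mDC 1 to 3, at 2.56, 1.94 and 1.77 FPKM in T-DC 1 to 3, and at 6.96, 6.80 and 7.53 FPKM in T-mDC 1 to 3. The 3 groups did not overlap. Lyz1 fell by 2.33 on the log2 scale in T-DCs against N-mDCs (SE 0.16, limma adjusted p = 0.000333) and by 1.40 against T-mDCs (limma adjusted p = 0.00197), past the threshold under 20 and 19 of the 20 other settings. Lyz2 was 365-fold to 546-fold above Lyz1 in T-DCs, 48.6-fold to 144-fold in N-mDCs and 24.4-fold to 73.7-fold in T-mDCs. Of the 50-base stretches of the Lyz2 transcripts 15.4% also occur in Lyz1, so reads may have been split or shared between the pair.

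**Figure D3:**
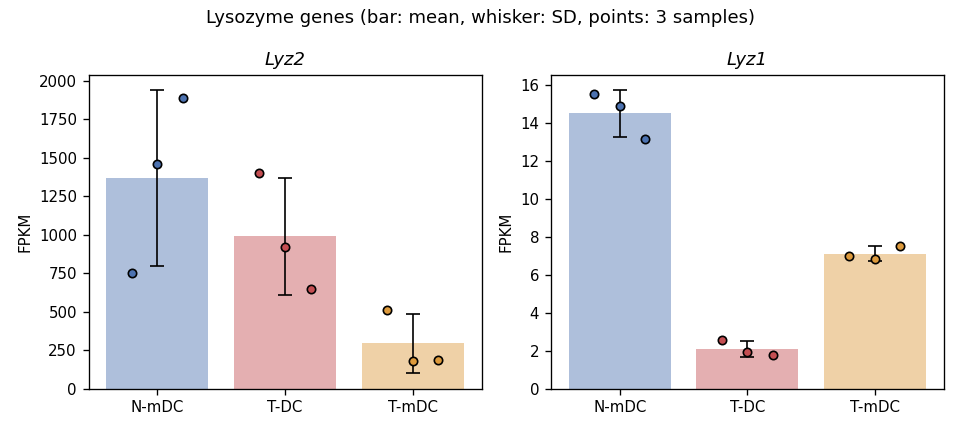
FPKM of Lyz2 and Lyz1 in the 3 groups on axes that start at 0; bars are group means, whiskers are SD and points are the 3 samples. Lyz2 was higher and Lyz1 was lower in every T-DC than in every T-mDC.

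T-DC 1 held the highest level of 5 of the 8 members (Adgre1, Cd68, Csf1r, Maf and Mpeg1), beside 18.8% of tested genes, and N-mDC 3 that of Ly6c2 and Lyz2. T-mDC 2 and 3 held the lowest level of 4 and 3 members, beside 8.42% and 8.31% of tested genes. The 8 genes together took 0.917%, 0.431% and 0.313% of the reads in T-DC 1 to 3, 0.448% to 0.711% in N-mDCs, and 0.505%, 0.337% and 0.333% in T-mDC 1 to 3. Among the T-DCs alone, 7 of the 8 genes were highest in T-DC 1, and Ly6c2 was lowest there.

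Genes with the nearest course over the 9 libraries differed between members. For Maf they were P2ry12, Ptprm and Slc16a9 (root mean square differences of 0.13 to 0.14 on the log2 scale), for Csf1r Adgre1, Pilrb2 and Tcn2 (0.17 to 0.18), for Adgre1 Csf1r, Tcn2 and Glul (0.17 to 0.19), and for Cd68 Ctsa, Tnfsf12 and Cd300c2 (0.08 to 0.14). For Mpeg1 they were Cd2ap, Asah1 and Foxp1 (0.13 to 0.14), for Lyz2 Pilrb1, Ets1 and Itgb5 (0.29 to 0.35), and for Cd14 Gm21762, Siglech and Slpi (0.39 to 0.43). For Ly6c2 they were Retnlg, Igkv12-89 and Gm21762 (0.65 to 0.75), so Ly6c2 had the least close neighbours. All 9 points share their libraries, and the measure is a description.

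The other monocyte genes did not move as 1 group. Of 10 nonclassical monocyte genes, 4 were higher in T-DCs than in N-mDCs (Cd300e, Spn, Pglyrp1 and Fabp4) and 8 were higher than in T-mDCs, with 0 lower in either, and their medians were 2 and 2.31 on the log2 scale. Under the other settings 0 to 6 and 0 to 9 of the 10 were called, and with T-mDC 2 and 3 as 1 sample the counts were 4 and 0. Of 10 tested classical monocyte genes, 1 (Gda) was higher and 3 (Ccr2, Plac8 and Ms4a4c) lower in T-DCs relative to N-mDCs, while Gda and Chil3 were higher and Ms4a4c was lower than in T-mDCs, with medians of -0.41 and 0.75. Under the other settings 0 to 5 and 0 to 4 of these genes were called, with 0 under the red cell covariate and, with T-mDC 2 and 3 as 1 sample, 2 and 1. The list is described by these counts, and no test of a list was run.

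Ace, the angiotensin-converting enzyme that marks nonclassical monocytes, was at 425, 175 and 157 FPKM in T-DC 1 to 3, at 19.4 to 48.2 FPKM in N-mDCs and at 81.1, 5.06 and 4.65 FPKM in T-mDC 1 to 3. Every T-DC was above every sample of both other groups, with 4.01 more than T-mDCs on the log2 scale (SE 0.97, limma adjusted p = 0.028). Against N-mDCs the value was 2.69 and was not called (limma adjusted p = 0.0871). It passed the threshold under 2 of the 20 other settings. Spn, which encodes CD43, was at 249, 145 and 129 FPKM in T-DC 1 to 3, at 18.9 to 38.0 FPKM in N-mDCs and at 15.7 to 72.1 FPKM in T-mDCs, and was called in both contrasts (2.48 and 2.61 on the log2 scale, limma adjusted p = 0.0227 and 0.0208). Its call against N-mDCs held under 14 of the 20 other settings and was lost without T-DC 2 or without any 1 of the N-mDCs. The ratio of Ace to Ly6c2 was 51.4, 5.74 and 5.68 in T-DC 1 to 3, 0.563 to 1.28 in N-mDCs and 9.32, 4.25 and 3.9 in T-mDC 1 to 3.

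Cx3cr1, the fractalkine receptor of nonclassical monocytes, was at 92.2, 50.1 and 34.4 FPKM in T-DC 1 to 3, and at 4.19 to 27.1 FPKM in T-mDCs (2.57 more on the log2 scale, limma adjusted p = 0.0326). Against N-mDCs it gave 2.06 and was not called (limma adjusted p = 0.0603). Cd300e, an activating receptor of monocytes, was at 414, 270.1 and 148 FPKM in T-DC 1 to 3 and at 27.3 to 44.9 FPKM in N-mDCs (2.74 more on the log2 scale, limma adjusted p = 0.0106). Against T-mDCs Cd300e gave 1.81 and was not called (limma adjusted p = 0.0513). Fabp4, a fatty acid binding protein, and Pglyrp1, a peptidoglycan binding protein, were called in both contrasts, by 2.76 and 1.93 against N-mDCs and by 2.66 and 2.38 against T-mDCs on the log2 scale (limma adjusted p from 0.0116 to 0.0322). Against N-mDCs their calls held under 14 and 15 of the 20 other settings. That of Fabp4 was lost without T-DC 2 or without any 1 of the N-mDCs, and that of Pglyrp1 without T-DC 2, N-mDC 1 or N-mDC 3. Ccr2, the receptor by which classical monocytes leave the marrow, was at 5.38, 4.35 and 2.34 FPKM in T-DC 1 to 3 and at 8.27 to 26.7 FPKM in N-mDCs, with a value of -1.56 on the log2 scale (limma adjusted p = 0.0353). That call held under 8 of the 20 other settings and was lost without N-mDC 2 or 3, T-DC 2 or 3, or T-mDC 2 or 3. Chil3, a secreted chitinase-like protein also made by neutrophils, was at 108, 528 and 240.4 FPKM in T-DC 1 to 3, the order of the neutrophil sum, and at 1.43 to 20.4 FPKM in T-mDCs (limma adjusted p = 0.0316, past the threshold under 11 of the 20 other settings and lost without N-mDC 2, T-DC 2 or 3, or T-mDC 2 or 3). Plac8 and Ms4a4c fell by 1.14 and 0.90 on the log2 scale in T-DCs against N-mDCs, and Ms4a4c by 1.35 against T-mDCs, while Gda rose by 3.48 and 3.22 (limma adjusted p = 0.0125 and 0.0189). The call of Ms4a4c against N-mDCs held under 9 of the 20 other settings and was lost without any 1 of the N-mDCs, T-DC 3, or T-mDC 2 or 3.

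Of 12 tested macrophage genes, T-DCs had 0 higher and 2 lower relative to N-mDCs, beside 6.1% and 10.3% of all tested genes. Against T-mDCs limma called 0, with 4 higher at an unadjusted p under 0.05, and voom called 1. The 2 genes lower than in N-mDCs were Fcgr1, the high-affinity IgG receptor, and Siglec1, a sialic acid receptor of marginal metallophilic macrophages. They fell by 1.34 and 1.62 on the log2 scale (limma adjusted p = 0.0307 and 0.00637). The calls held under 11 (Fcgr1) and 19 (Siglec1) of the 20 other settings. That of Fcgr1 was lost without N-mDC 2 or 3, T-DC 2 or 3, or T-mDC 2. Siglec1 was at 1.84, 1.26 and 2 FPKM in T-DC 1 to 3 and at 5.07 to 11.3 FPKM in N-mDCs. Fcgr1 and Siglec1 were also called lower in T-mDCs than in N-mDCs (-2.42 and -2.26 on the log2 scale, limma adjusted p = 0.0155 and 0.00955). With T-mDC 2 and 3 as 1 sample 0 macrophage genes were called in that contrast. For both genes every T-DC was above every T-mDC. In T-DCs all 12 genes had a value below 0 against N-mDCs and above 0 against T-mDCs, with medians of -0.95 and 0.94. Of the 9 red pulp macrophage genes 0 were called in any of the 3 contrasts, by limma or by voom, and at an unadjusted limma p under 0.05 there were 1 lower than in N-mDCs and 1 higher than in T-mDCs for T-DCs, and 5 lower in T-mDCs than in N-mDCs. Their medians in the 3 contrasts were -0.76, 0.95 and -1.88. Without T-DC 1, 6 of the macrophage genes and 4 of the red pulp macrophage genes were called for T-DCs against N-mDCs.

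Spic, the transcription factor of red pulp macrophages, was at 103, 28.4 and 15.7 FPKM in T-DC 1 to 3, 70.4 to 130 FPKM in N-mDCs and 44.1, 13 and 12.5 FPKM in T-mDC 1 to 3. It was highest in T-DC 1 among T-DCs and in T-mDC 1 among T-mDCs, as were Csf1r, Adgre1 and Maf. The summed FPKM of the macrophage list was 3989, 1362 and 1032 in T-DC 1 to 3, 1914 to 4340 in N-mDCs, and 1746, 508 and 502 in T-mDC 1 to 3. The summed FPKM of the nonclassical monocyte genes was likewise highest in T-DC 1 among T-DCs and in T-mDC 1 among T-mDCs. The part of macrophages or nonclassical monocytes in the levels of Csf1r, Adgre1, Maf and Cd68 was not tested.

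Of 12 myeloid transcription factors 2 fell in T-DCs relative to N-mDCs, Egr1 by 2.43 and Bach2 by 0.91 on the log2 scale (limma adjusted p = 0.0188 and 0.035). Of all tested genes, 10.3% were called lower in this contrast. The call of Egr1 held under 14 of 20 other settings and that of Bach2 under 6 of 19. Of the 12 factors 0 were called without N-mDC 3, T-DC 2 or T-DC 3, and 6 without T-DC 1. Irf8, which conventional DCs and monocytes both use, was at 90.2, 36.4 and 26.3 FPKM in T-DC 1 to 3 and at 136 to 181 FPKM in T-mDCs, and fell by 1.87 (limma adjusted p = 0.0194), a call that held under 14 of the 20 other settings and was lost without T-DC 2 or without T-mDC 2 or 3. Of 16 tested relatives of the members, T-DCs had 1 higher and 5 lower relative to N-mDCs, and 3 higher and 4 lower relative to T-mDCs. Among relatives of Csf1r, the DC growth factor receptor Flt3 was at 15.4, 6.11 and 4.48 FPKM in T-DC 1 to 3 against 44.4 to 78.8 FPKM in N-mDCs, and fell by 2.76 on the log2 scale against them and by 3.21 against T-mDCs (limma adjusted p = 0.00375 and 0.00256). Kit, another receptor of this family, fell by 2.09 and 2.12 in the same contrasts (limma adjusted p = 0.0188 and 0.0198), and Ly6i, a relative of Ly6c2, rose by 2.27 against T-mDCs (limma adjusted p = 0.0408).

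**Figure D4:**
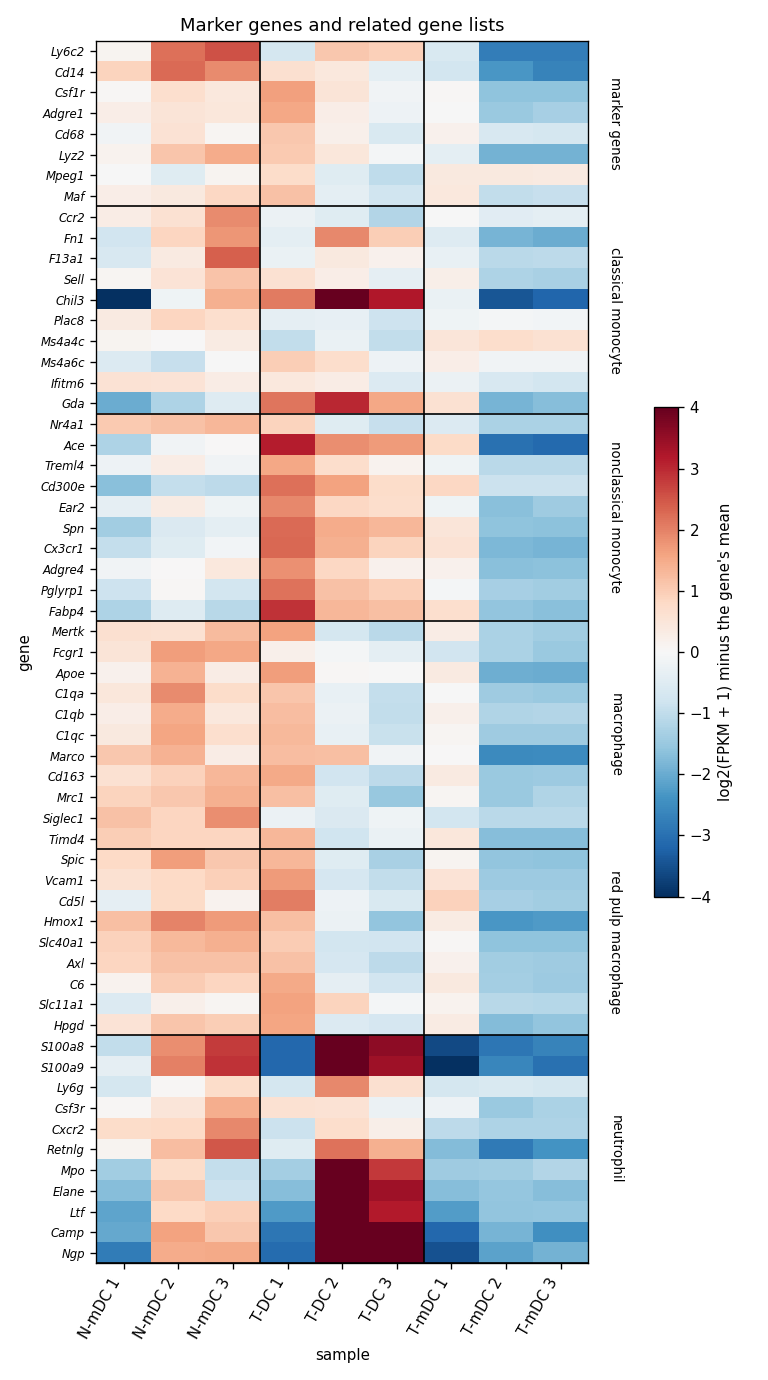
Level of tested genes of 6 lists in the 9 samples, as log2(FPKM + 1) minus the mean of the gene over the samples; colours end at 4 in either direction. The nonclassical monocyte genes other than Nr4a1 had their highest group mean in T-DCs, red pulp macrophage genes were low in T-DC 2 and 3 and T-mDC 2 and 3, and the summed neutrophil genes were highest in T-DC 2.

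**Figure D5:**
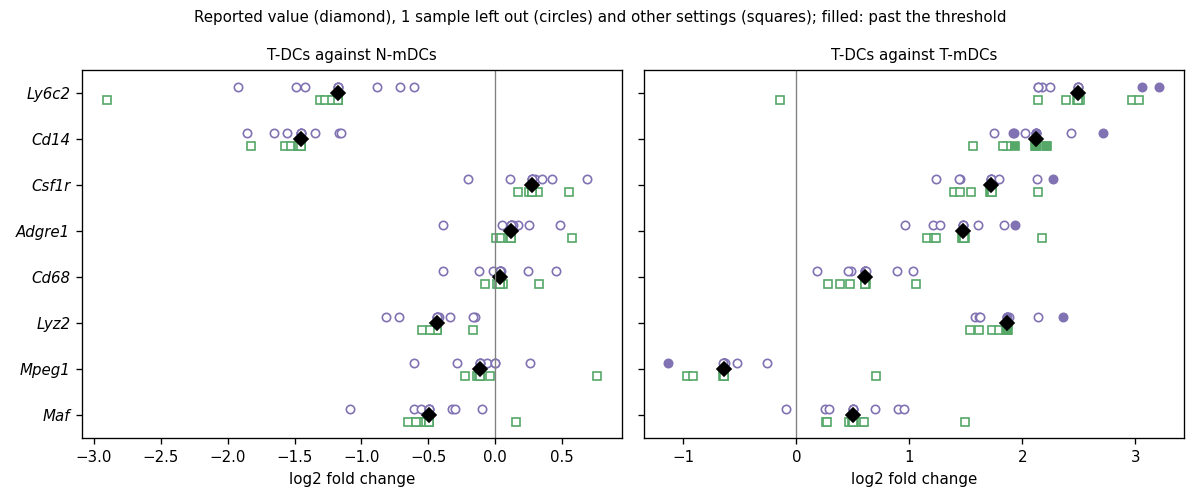
Log2 fold change of each marker gene for T-DCs against N-mDCs and against T-mDCs; diamonds are the reported values, circles leave out 1 sample, squares are the other settings, and filled symbols passed the threshold. Filled symbols occur for Ly6c2, Cd14, Csf1r, Adgre1, Lyz2 and Mpeg1 in the contrast with T-mDCs and for no gene in the contrast with N-mDCs.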

How the data were processed

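The authors deposited gene-level FPKM values for 9 bulk RNA-seq libraries, with genome build mm10 per the submitters' processing notes; the aligner, annotation and counting settings are not given in the sources used here. The product of FPKM and gene length, divided by a scale recovered for each library, was a whole number of reads for 100% of values (within 0.01 of a read). The 12746 genes that reached an FPKM of 1 in 3 samples or more were tested as log2(FPKM + 1) in R 4.3.3 using limma 3.58.1 (lmFit, contrasts.fit and a trended eBayes), all 3 groups in 1 fit, with Benjamini-Hochberg adjustment over all tested genes and a threshold of 0.05; adding 1 understates changes of low genes. The procedure was tested on simulated data. The members and gene lists were chosen with earlier results of these data known. Genes named beside the members are up to 6 per list, called in a contrast with T-DCs with the largest changes, direct partners and close copies (chosen by name) and the 3 genes nearest in course. Zbtb46, Itgax, Ly6g and Spic were named as defining markers after their values were seen. Mafg and Mafk were named beside Maff, and Nr4a1 beside the called nonclassical monocyte genes, also after their values were seen. The alternatives were a pseudocount of 0.1, no filter, a filter of 5, TPM, quantile normalization, median-of-ratios scaling, only the groups compared, a replicate block, voom on recovered reads, T-mDC 2 and 3 as 1 sample, a red cell covariate and leaving out each sample. Sequences came from a RefSeq (GRCm38.p6) promoter table that held 4 of the 8 members. Of the listed genes, 1 is not reported by name here. No transcript, single-cell or flow cytometry data were analysed here.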

Additional observations from a re-analysis of the deposited data

How the results depend on the processing

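No member was called between T-DCs and N-mDCs under any alternative. Between T-DCs and T-mDCs, where 2 members were called, 0 were called with no filter, with TPM, with only the groups compared, with a replicate block, with T-mDC 2 and 3 as 1 sample and with a red cell covariate, 1 was called with quantile normalization, and leaving out 1 sample gave 0 to 5. It gave 0 without N-mDC 3, T-DC 2, T-DC 3, T-mDC 2 or T-mDC 3, 1 without N-mDC 2, 3 without T-DC 1 (Cd14, Ly6c2 and Mpeg1) and 5 without T-mDC 1. Between T-mDCs and N-mDCs, where 1 was called, 2 were called with quantile normalization and with only the groups compared, 0 with a replicate block and with T-mDC 2 and 3 as 1 sample, and leaving out 1 sample gave 0 to 3, with 0 without N-mDC 2, N-mDC 3, T-mDC 2 or T-mDC 3, 2 without N-mDC 1 and 3 without T-DC 1 or T-mDC 1. Fits that left out or merged samples, or took only the groups compared, held fewer samples, and the block left fewer degrees of freedom. The cause of the changed counts was not tested for any setting. Deviations of same-numbered samples correlated from -0.475 to 0.269 over 9 pairs, and those of differently numbered samples from -0.361 to 0.427. With 3 samples a group, these correlations cannot decide whether the replicate numbers pair the samples. TPM moved the median of all genes to -0.07, -0.23 and 0.21 on the log2 scale in the 3 contrasts, from 0.05, 0.07 and 0.03.

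None of the values that turned sign had passed the threshold. Against N-mDCs the log2 fold change of T-DCs turned with the red cell covariate for Maf (0.16), Mpeg1 (0.76), Ly6i (-0.33), Tlr4 (0.62), Ly96 (0.023) and Spi1 (0.27), and with TPM for Cd68 (-0.076). Leaving out 1 sample it ranged over 0 for Adgre1 (-0.39 to 0.49), Cd68 (-0.39 to 0.46), Csf1r (-0.20 to 0.69), Mpeg1 (-0.61 to 0.26), Retnlg (-0.82 to 0.53), Tlr4 (-0.57 to 0.45) and Spi1 (-0.52 to 0.18). Against T-mDCs it turned with the covariate for Ly6c2 (-0.15), Mpeg1 (0.70), Egr1 (0.67), Bach2 (0.21), Prf1 (-0.44) and Spi1 (0.64), with quantile normalization for Csf1 (0.027) and with TPM for Ly96 (-0.10), and leaving out 1 sample it ranged over 0 for Maf (-0.091 to 0.95), Prf1 (-0.11 to 0.65), Ly96 (-0.16 to 0.45) and Spi1 (-0.37 to 0.33). With 3 samples a group, and T-mDC 2 and 3 nearly alike, these data do not resolve most differences of the members; the 63 and 60 reads of Ly6c2 in T-mDC 2 and 3 were the thinnest.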
